A study of Mus musculus with 8 samples.

Results

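The genes described here encode the actin filament itself, the tropomyosins that coat it, the myosins that move along it and the proteins that cross-link it, regulate it or anchor it to the cell's adhesions. They were chosen by gene symbol and cover the actins Actb, Actg1 and Acta2, the Tpm, Myh, Myl and Myo families (Myo1a and Myo7b left out), the alpha-actinins, filamins, calponins, transgelins and PDZ-LIM proteins, and the genes for caldesmon, 6 focal adhesion proteins, the cofilins and profilin. The rule found 84 of the 53170 named genes of the table. Of these 84 genes, 55 had enough reads to enter the test and 29 did not, while 14058 genes were tested in all.

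RNA was sequenced from 8 bulk libraries of organoids, small epithelial cultures grown from the hindstomach (glandular stomach) epithelium of mouse embryos at embryonic day 18.5 and kept for 5 days in growth medium. The 4 YAP5SA libraries have the genotype Shh-Cre;YAP5SA and overexpress YAP5SA, a form of the transcriptional coactivator YAP whose inhibitory phosphorylation sites were changed so that it stays active. The 4 control libraries have the genotype Shh-Cre alone, so both groups carry Shh-Cre, a recombinase expressed from the Shh locus. No label states that libraries of a group derive from different embryos or different cultures. The p-values therefore speak only to variation among the libraries, and this variation may be technical.

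Actin monomers assemble into filaments that give the epithelial cell its cortex, its cell junctions and its contractile bundles. Tropomyosins lie along the filament and set which proteins can bind it, and the non-muscle form of myosin II, a complex of heavy chains with essential and regulatory light chains, slides filaments past each other to generate tension. Many of these genes are known targets of serum response factor (SRF), which binds a sequence called the CArG box and is switched on by actin-regulated cofactors, and some are known targets of YAP bound to DNA through TEAD factors, so actin tension and YAP are widely studied together.

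Total counts were 15340264 to 17883861 in the YAP5SA libraries and 13672268 to 19710648 in the controls. Changes are log2 fold changes, YAP5SA over control, with their standard error (SE). Levels are given as CPM (read counts per 1000000 counts of the library, with library sizes scaled between samples), in the order of libraries 1 to 4 of each group, and a gene counts as changed where edgeR's quasi-likelihood test gave an adjusted p under 0.05. Summed levels of 6 epithelial markers were 6307 to 6556 CPM in YAP5SA and 7594 to 8134 CPM in controls. Of these, Cdh1, Krt8 and Krt19 fell, and Krt18 and Cldn7 did not pass the test. Epcam rose (640 ± 20.8 CPM in YAP5SA organoids and 486 ± 47.2 CPM in controls). Summed levels of 6 gastric epithelial markers were 68.3 to 71.7 CPM in YAP5SA and 2119 to 2246 CPM in controls. Of the gastric markers, 5 fell and Sox2 rose (47.6 ± 4.29 CPM in YAP5SA organoids and 30.6 ± 1.67 CPM in controls). Gkn1, among those that fell, had 6 counts over the 4 YAP5SA libraries and 3619 over the 4 controls. It entered the test only through the controls and so had to differ. Cldn18 and Pgc, at 0.294 CPM in YAP5SA 4, would not have entered it through the YAP5SA libraries alone. The number that fell is therefore a description only. Xist was at 0.412 to 2.76 CPM in YAP5SA and 676 to 1049 CPM in controls, and Y-linked Ddx3y at 68.2 to 75.6 CPM in YAP5SA and at most 0.325 CPM in controls, so sex and genotype cannot be told apart. Control 4 stood apart with transcript length. Against the other controls, its median log2 ratio was 0.18 for tested genes with a transcript of at least 6000 bp and −0.11 for those under 2000 bp, and it was the highest control for 69.2% of all those long genes. Among the tested cytoskeletal genes, it was the highest control for 14 of 18 with such long transcripts (77.8%) and for 22 of 37 with shorter ones (59.5%), against 33.5% of all tested genes with a known length. Calls that change without it are given both ways. Yap1 read 149.6 to 157 CPM in YAP5SA and 152 to 169 CPM in controls and was not past the test, and whether transgene reads were counted as Yap1 was not tested.

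Promoter sequence bears on these genes because the TEAD and SRF motifs can be read in it. RefSeq promoter sequence (mouse build GRCm38.p6, the 250 bases before an annotated start) was found for 72 of the 84 genes, and those without an entry included Actb, Myo1d, Myo5b, Tagln, Tln2, Pdlim2 and Pxn. The TEAD core (GGAATG, or CATTCC on the other strand) and the CArG box were searched on both strands, and the motifs may share bases. The sequences below are shown for 5 genes of which Tpm2, Cald1, Myh10 and Myl9 changed at least 2-fold and Actg1 is an abundant actin. They are chosen examples and do not show how often a motif occurs. No motif was found for Actn1, Actn2, Myo7a and Myo16, which also changed at least 2-fold and are not shown. Capitals mark a motif, each sequence runs 5′ to 3′ along the gene's strand, and the last base is the one before the annotated start.
Tpm2, chr4:43523555-43523804, minus strand, no motif: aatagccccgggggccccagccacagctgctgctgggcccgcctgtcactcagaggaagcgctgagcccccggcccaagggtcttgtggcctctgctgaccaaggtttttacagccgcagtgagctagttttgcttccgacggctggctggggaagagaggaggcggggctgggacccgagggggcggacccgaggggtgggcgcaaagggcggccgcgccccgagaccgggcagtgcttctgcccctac
Cald1, first annotated promoter, chr6:34598254-34598503, plus strand, TEAD core: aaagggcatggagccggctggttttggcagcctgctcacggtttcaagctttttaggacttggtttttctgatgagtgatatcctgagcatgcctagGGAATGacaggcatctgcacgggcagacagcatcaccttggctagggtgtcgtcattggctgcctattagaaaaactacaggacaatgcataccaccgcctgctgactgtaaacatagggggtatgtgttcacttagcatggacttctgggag
Cald1, second annotated promoter, chr6:34709194-34709443, plus strand, no motif: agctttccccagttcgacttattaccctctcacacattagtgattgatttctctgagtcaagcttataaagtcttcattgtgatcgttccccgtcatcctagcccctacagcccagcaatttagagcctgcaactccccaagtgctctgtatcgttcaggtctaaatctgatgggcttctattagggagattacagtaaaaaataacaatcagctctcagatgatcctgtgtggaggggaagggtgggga
Myh10, chr11:68691665-68691914, plus strand, TEAD core: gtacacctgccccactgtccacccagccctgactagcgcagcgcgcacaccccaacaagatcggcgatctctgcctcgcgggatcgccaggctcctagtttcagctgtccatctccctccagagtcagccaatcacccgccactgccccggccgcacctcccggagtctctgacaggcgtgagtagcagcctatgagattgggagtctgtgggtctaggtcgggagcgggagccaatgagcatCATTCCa
Myl9, chr2:156775214-156775463, plus strand, CArG box: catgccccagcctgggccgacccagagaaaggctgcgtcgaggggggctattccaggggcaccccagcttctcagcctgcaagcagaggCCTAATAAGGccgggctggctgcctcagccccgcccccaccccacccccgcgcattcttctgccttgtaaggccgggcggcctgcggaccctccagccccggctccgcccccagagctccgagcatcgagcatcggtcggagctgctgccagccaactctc
Actg1, chr11:120348496-120348745, minus strand, CArG box: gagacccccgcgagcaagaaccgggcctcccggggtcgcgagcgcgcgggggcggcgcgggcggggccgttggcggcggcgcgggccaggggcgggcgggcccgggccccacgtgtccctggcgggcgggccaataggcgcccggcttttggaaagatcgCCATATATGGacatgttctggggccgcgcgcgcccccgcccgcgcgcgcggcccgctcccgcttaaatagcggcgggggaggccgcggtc
The first base of the motif lies 153 bases before the start in Cald1, 7 bases before it in Myh10, 161 bases before it in Myl9 and 90 bases before it in Actg1. Among the 84 genes, a TEAD core lay in the promoter of 22 of the 72 with sequence (30.6%), against 14.4% of all 27025 genes of the RefSeq table. Split by outcome, the TEAD core was present in 2 of 9 higher genes (22.2%, Actn4 and Cald1), in 6 of 19 lower genes (31.6%, Flna, Myh10, Myo10, Myo6, Tagln2 and Tpm1) and in 5 of 18 genes not past the test (27.8%). A CArG box lay in 9 of the 72 (12.5%), against 1.62% of all genes of the table. The tested genes with one were Cnn2, which was higher, Actg1 and Myl9, which were lower, and Myl6, Myo1e and Vcl, which were not past the test. A match is a description of letters in this window and not of binding.

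The cytoskeletal genes took a smaller part of the transcriptome in YAP5SA organoids, and more of them were lower than higher. Together the 84 genes held 1.14% to 1.20% of a library's counts in YAP5SA and 1.24% to 1.39% in controls. Their summed level was 11429.9 to 11916 CPM in YAP5SA, against 12546 to 14187 CPM in controls, with control 4 the highest and the groups not overlapping. As everywhere in bulk RNA, fewer cells of a type and less RNA per cell cannot be told apart. Of the 55 tested genes, 34 changed, 61.8% against 49.1% of all tested genes. 11 were higher in YAP5SA, 20% against 23.6% of all tested genes, and 23 were lower, 41.8% against 25.5%. Changes of at least 2-fold were seen for 3 higher genes, 5.45% of those tested against 5.26% of all, and 7 lower genes, 12.7% against 8.59% of all. Of these 7, Myl9, Myo16 and Actn2 passed the filter on low counts only through the controls and so had to differ, and nothing is read from the 2-fold share. For 33 of the 55 genes, 60% against 45.7% of all tested genes, the 4 YAP5SA values did not overlap the 4 control values. The median log2 fold change was −0.13 for the 55 genes and 0.0041 for all tested genes. Myl9, Myo16 and Actn2 also count among the 34 changed, the 23 lower and the 33 non-overlapping genes, and in this median. The filter therefore set part of these values, and they are descriptions only. Without control 4, 15 of the 55 were higher and 26 lower. Of all genes, 3595 were then higher and 3722 lower, against 3315 and 3584 with all libraries. Calls thus rose over all genes too, and nothing is read from the added calls.

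**Figure D1:**
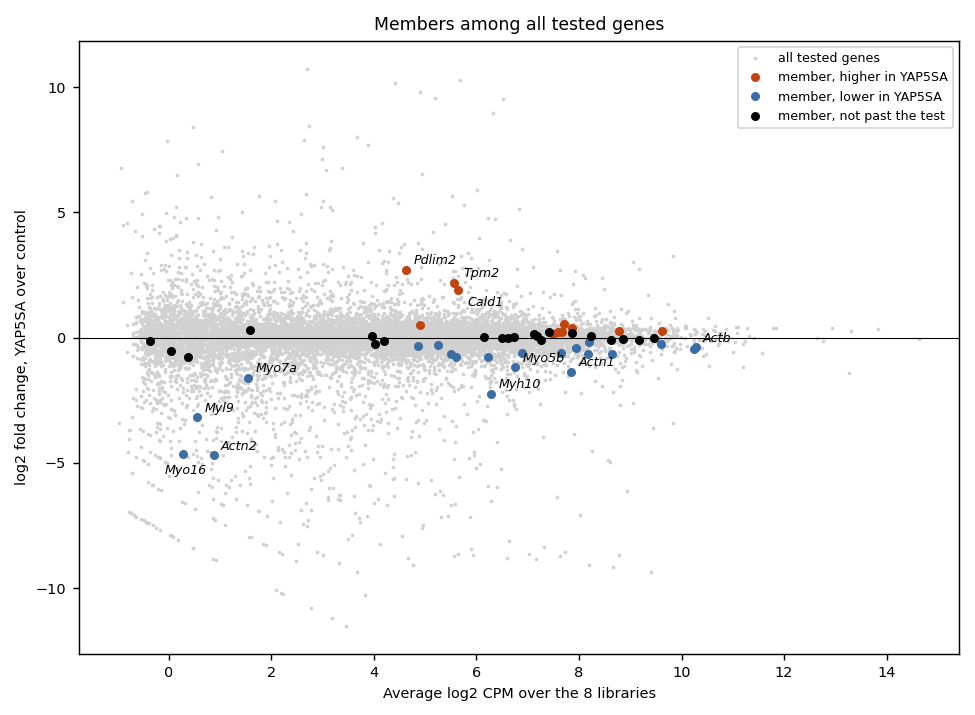
Log2 fold change (YAP5SA over control) on the y axis against average log2 CPM on the x axis for all 14058 tested genes (grey) and 53 tested cytoskeletal genes, coloured by the test's outcome. Pdlim2, Tpm2 and Cald1 are the 3 cytoskeletal genes at least 2-fold higher, and the abundant actins sit at the right, just below 0.

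**Figure D2:**
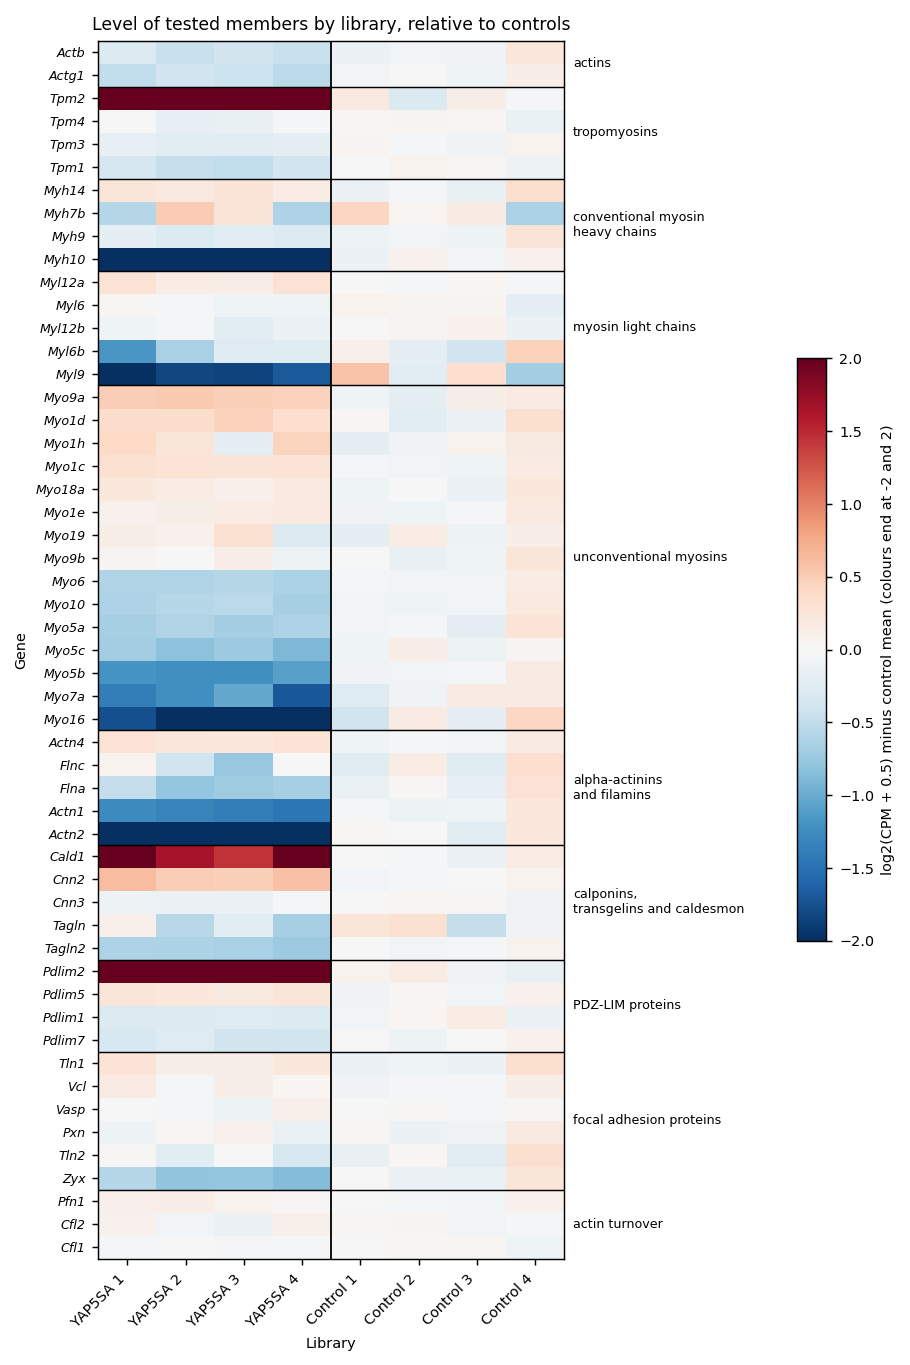
Colour shows log2(CPM + 0.5) minus the mean of the 4 controls for each of 53 tested genes (rows, by role) in each library (columns, YAP5SA left). Tpm2, Cald1 and Pdlim2 are darker red in all 4 YAP5SA libraries, and Myh10, Actn1, Actn2, Myo5b and Myo16 are blue in all 4.

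Both cytoplasmic actins fell. Actg1, gamma-actin, had 1002, 1079, 1052 and 967 CPM in the YAP5SA libraries, against 1363, 1404, 1333 and 1550.2 CPM in the controls. Its change was −0.46 ± 0.06, adjusted p = 2.23e-06 (log2 fold change ± SE, edgeR), and the promoter with the CArG box shown above is its own. Actb, beta-actin, had 1159.7, 1035, 1081 and 1026 CPM in the YAP5SA libraries, against 1297, 1353, 1339.5 and 1643 CPM in the controls, a change of −0.39 ± 0.07, adjusted p = 0.000148. All 4 YAP5SA libraries lay below all 4 controls for both genes, and control 4 was the highest for both. Without it the log2 fold changes were −0.41 with adjusted p = 1.58e-07 for Actg1 and −0.30 with adjusted p = 1.35e-05 for Actb. Per kilobase of transcript, Actb made up 51.6% ± 1.95 of the Actb and Actg1 total in YAP5SA and 50.3% ± 1.22 in controls (SD, n = 4 each), so the balance between the actins moved by less than the spread between libraries. Both genes have near-identical copies in the genome, and reads shared with these make their values less certain. Acta2, the smooth muscle actin, was near 0, with 1 count over the 4 YAP5SA libraries and 4 over the 4 controls.

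Among the tropomyosins, Tpm2 rose, Tpm1 and Tpm3 fell, and Tpm4 did not pass the test. Tpm2, beta-tropomyosin, had 81.8, 84.2, 74.0 and 69.5 CPM in the YAP5SA libraries, against 19.4, 13.8, 18.4 and 16.5 CPM in the controls. The lowest YAP5SA library was above the highest control, and the rise was 4.54-fold (2.18 ± 0.10, adjusted p = 2.24e-12, edgeR). Tpm1 averaged 210.4 ± 10.6 CPM in YAP5SA organoids and 282 ± 14.5 CPM in controls (−0.42 ± 0.05, adjusted p = 3.12e-06). Tpm3 had 277, 269.7, 266 and 273 CPM in the YAP5SA libraries, against 321, 302, 296 and 326 CPM in the controls, a smaller change of −0.20 ± 0.05, adjusted p = 0.00249, with no overlap between the groups. Tpm4, the most abundant tropomyosin, had 592, 526, 529 and 577 CPM in the YAP5SA libraries, against 607, 609, 605 and 534 CPM in the controls. The groups overlapped because control 4 lay among the YAP5SA values, and the change was −0.08 ± 0.06, adjusted p = 0.247. Without control 4 it was −0.12 with adjusted p = 0.0264.

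On the scale of CPM per kilobase of transcript, where genes can be set beside each other, Tpm2 was 6.67% ± 0.65 of the 4 tropomyosins in YAP5SA and 1.36% ± 0.19 in controls (SD, n = 4 each). Tpm1 was 21.6% ± 0.19 in YAP5SA and 26.7% ± 0.71 in controls, and Tpm3 was 22.8% ± 0.63 in YAP5SA and 24.1% ± 1.80 in controls. Tpm4 was 48.9% ± 0.98 in YAP5SA and 47.8% ± 1.37 in controls. Tpm4 was the largest share in both groups, and Tpm2 was the smallest share in both while lying higher in every YAP5SA library than in every control. These shares are descriptions, and no test was run on them.

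The heavy chains of non-muscle myosin II diverged. Myh10, the heavy chain of non-muscle myosin IIB, had 28.6, 25.9, 26.0 and 28.7 CPM in the YAP5SA libraries, against 119, 137, 124 and 136 CPM in the controls. It was 4.73-fold lower (−2.24 ± 0.07, adjusted p = 9.39e-15, edgeR), with the groups far apart and little spread within either, and the TEAD core of its promoter is shown above. Myh9, the heavy chain of myosin IIA and the most abundant of the family, had 736, 692, 727 and 699 CPM in the YAP5SA libraries, against 784, 805, 783 and 1008 CPM in the controls. The groups did not overlap and Myh9 fell (−0.24 ± 0.07, adjusted p = 0.00884), but control 4 was far above the other controls, and without it the change was −0.15 with adjusted p = 0.00432. Myh14, the heavy chain of myosin IIC, had 186, 179, 188 and 174 CPM in the YAP5SA libraries, against 144, 152, 141 and 196 CPM in the controls. All 4 YAP5SA libraries exceeded controls 1 to 3 and lay below control 4, and the change was not past the test (0.20 ± 0.09, adjusted p = 0.0669). Without control 4 it was 0.32 with adjusted p = 7.52e-06. With all libraries kept, Myh14 also passed the test by library size alone, with upper-quartile scaling and without the filter on low counts.

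Per kilobase, Myh10 was 2.76% ± 0.17 of the 3 non-muscle heavy chains in YAP5SA and 10.8% ± 0.94 in controls (SD, n = 4 each). Myh14 was 21.9% ± 0.36 in YAP5SA and 15.7% ± 0.55 in controls, and Myh9 was 75.3% ± 0.20 in YAP5SA and 73.5% ± 0.63 in controls. The order of the 3 genes was the same in both groups, with Myh9 first and Myh10 last. Myh7b, a slow muscle heavy chain, was tested at a low level and did not pass (log2 fold change −0.13 ± 0.50, adjusted p = 0.847, 95% interval −1.12 to 0.85). The other 10 muscle heavy chains of the Myh family were too low to test. Myh7, the slow and cardiac form, had 3 counts over the 4 YAP5SA libraries and 33 over the 4 controls. Myh11, the smooth muscle form, had 10 counts over the 4 YAP5SA libraries and 7 over the 4 controls. Myh1, Myh2, Myh3, Myh4, Myh6 and Myh15 had at most 11 counts in a group, and Myh8 and Myh13 had none.

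**Figure D3:**
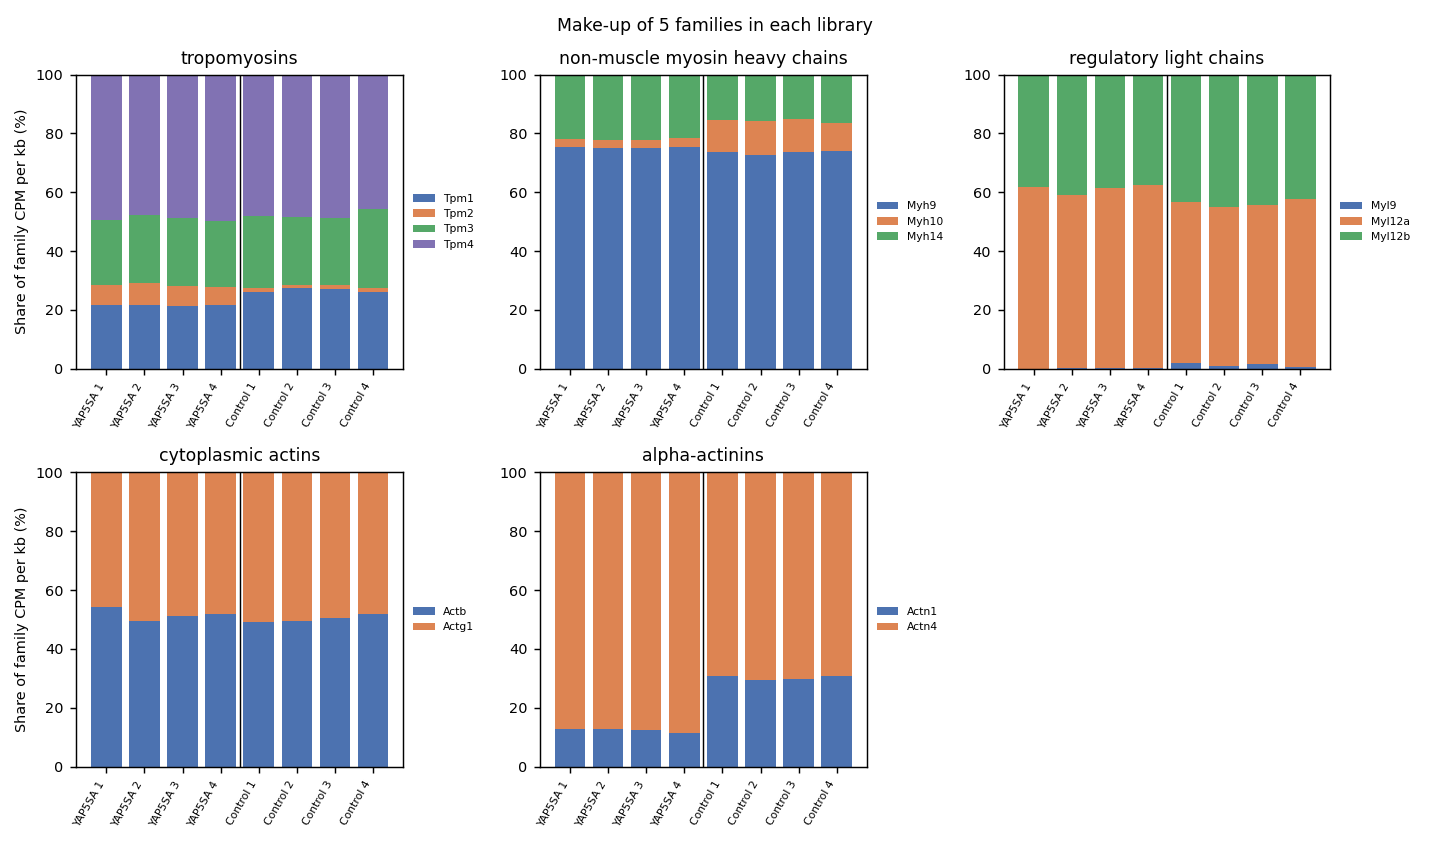
Stacked bars give each gene's share (%) of its family's CPM per kilobase of transcript in each library, with YAP5SA libraries left of the controls in each of 5 panels. The Tpm2 and Myh14 bands are thicker and the Myh10 and Actn1 bands thinner in every YAP5SA library than in every control.

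Of 5 tested myosin light chains, 1 rose (20%, against 23.6% of all tested genes) and 1 fell (20%, against 25.5%). Myl6, the essential light chain of non-muscle myosin II, had 478, 461, 439 and 439 CPM in the YAP5SA libraries, against 488, 488, 485 and 413 CPM in the controls. Control 4 was the lowest of all 8 libraries, the groups overlapped, and the change was −0.05 ± 0.06, adjusted p = 0.545 with a 95% interval of −0.16 to 0.07. Without control 4 it was −0.10 with adjusted p = 0.0525. Myl12a, a regulatory light chain, had 217, 199, 197 and 220.3 CPM in the YAP5SA libraries, against 179, 177, 185 and 177 CPM in the controls. It rose in every YAP5SA library relative to every control (0.22 ± 0.05, adjusted p = 0.00181, edgeR). Its neighbour Myl12b averaged 147 ± 6.95 CPM in YAP5SA organoids and 159 ± 9.87 CPM in controls and was not past the test (−0.11 ± 0.06, adjusted p = 0.105), though without control 4 it was lower (−0.15 with adjusted p = 0.012). The annotated exons of Myl12a and Myl12b share 462 bases on the same strand, so reads there cannot be assigned to either.

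Myl9, the regulatory light chain of smooth muscle and of some non-muscle cells, was low and fell further. It had 0.129, 0.276, 0.257 and 0.353 CPM in the YAP5SA libraries, against 3.54, 1.84, 2.95 and 1.20 CPM in the controls. Every YAP5SA library was below every control, and the controls themselves spread widely (−3.19 ± 0.42, adjusted p = 5.36e-06, from 17 counts over the 4 YAP5SA libraries and 164 over the 4 controls). Myl9 passed the filter on low counts only through the controls and so had to differ. Per kilobase it was 0.128% of the regulatory light chains in YAP5SA and 1.24% in controls. Myl6b was not past the test (−0.78 ± 0.36, adjusted p = 0.0855). The other 6 light chains were too low to test. Of these, Myl7, the atrial one, had 11 counts over the 4 YAP5SA libraries and 32 over the 4 controls, Myl4 had 9 counts over the 4 YAP5SA libraries and 4 over the 4 controls, Myl1 had 1 count over the 4 YAP5SA libraries and 0 over the 4 controls, and Myl10, Myl2 and Myl3 had no counts.

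Unconventional myosins carry membranes, vesicles and organelles along actin. Of 16 tested, 4 rose (25%, against 23.6% of all tested genes) and 8 fell (50%, against 25.5%). The class I myosins, short single-headed motors that tie membranes to actin, held the most abundant. Myo1c had 488, 478, 472 and 479 CPM in the YAP5SA libraries, against 389, 379, 371 and 442 CPM in the controls, and all YAP5SA libraries exceeded all controls (0.28 ± 0.06, adjusted p = 0.000423, edgeR). Myo1d had 257, 258, 278 and 255 CPM in the YAP5SA libraries, against 207, 172, 186 and 251 CPM in the controls, with control 4 just below the lowest YAP5SA library (0.36 ± 0.09, adjusted p = 0.00623). Myo1e was not past the test (0.13 ± 0.06, adjusted p = 0.0901), but passed without control 4 (0.20 with adjusted p = 0.000798), by library size alone and without the filter on low counts. Myo1h, a rare form, gave 0.28 ± 0.21, adjusted p = 0.295, and 20.3% of its exon bases overlap Kctd10 on the other strand.

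The class V myosins, which carry vesicles towards the cell surface, fell together. Myo5b, which recycles apical membrane proteins in polarized epithelia, had 66.1, 64.1, 63.6 and 70.7 CPM in the YAP5SA libraries, against 143, 145, 145 and 168 CPM in the controls. The groups were far apart, with control 4 highest, and the change was −1.18 ± 0.06, adjusted p = 3.05e-11 (edgeR). Myo5c, an epithelial form that moves secretory granules, averaged 54.6 ± 3.37 CPM in YAP5SA organoids and 94.3 ± 7.42 CPM in controls (−0.79 ± 0.07, adjusted p = 2.19e-08), and Myo5a averaged 35.0 ± 0.888 CPM in YAP5SA organoids and 55.3 ± 7.95 CPM in controls (−0.65 ± 0.09, adjusted p = 4.95e-06). All 3 members of the class therefore fell, where 25.5% of all tested genes did. For each of the 3, every YAP5SA library lay below every control. Of all tested genes, 45.7% had groups that did not overlap.

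Myo6, the motor that walks to the pointed end of the filament and serves endocytosis, had 159, 158, 163 and 155 CPM in the YAP5SA libraries, against 235, 232, 231 and 266 CPM in the controls. It fell with no overlap (−0.60 ± 0.05, adjusted p = 3.59e-08). Myo10, the filopodial myosin, fell by a like amount (−0.60 ± 0.06, adjusted p = 4.02e-07). Both have a TEAD core in their promoter. Myo7a, known from the hair cells of the inner ear, had 1.29, 1.49, 1.80 and 0.942 CPM in the YAP5SA libraries, against 3.41, 3.95, 4.73 and 4.73 CPM in the controls (−1.60 ± 0.23, adjusted p = 1.43e-05). Its level was low in both groups and the groups did not overlap. Myo16, a largely neuronal myosin, had 0.259, 0, 0 and 0.0589 CPM in the YAP5SA libraries, against 1.45, 2.38, 1.73 and 2.93 CPM in the controls, from 5 counts over the 4 YAP5SA libraries and 140 over the 4 controls (−4.66 ± 0.57, adjusted p = 2.21e-06). Myo16 was close to absent in YAP5SA libraries and low in controls. It passed the filter on low counts only through the controls and so had to differ.

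Myo9a and Myo9b carry a domain that switches off small GTPases. Myo9a averaged 34.6 ± 0.67 CPM in YAP5SA organoids and 24.6 ± 2.93 CPM in controls and rose (0.50 ± 0.08, adjusted p = 9.12e-05, edgeR), while Myo9b did not pass the test (0.01 ± 0.08, adjusted p = 0.896). Myo18a, which links Golgi membrane to actin, rose by a small amount with overlapping groups (0.16 ± 0.07, adjusted p = 0.0497). Leaving out any 1 library other than control 4 ended that call, with adjusted p up to 0.174. Myo19, which moves mitochondria, gave 0.07 ± 0.12, adjusted p = 0.681. Of the 7 untested unconventional myosins, Myo3b had 31 counts over the 4 YAP5SA libraries and 39 over the 4 controls and Myo15b had 22 counts over the 4 YAP5SA libraries and 35 over the 4 controls. Myo15, Myo1f and Myo1g had at most 7 counts in a group, and Myo3a and Myo18b had none.

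**Figure D4:**
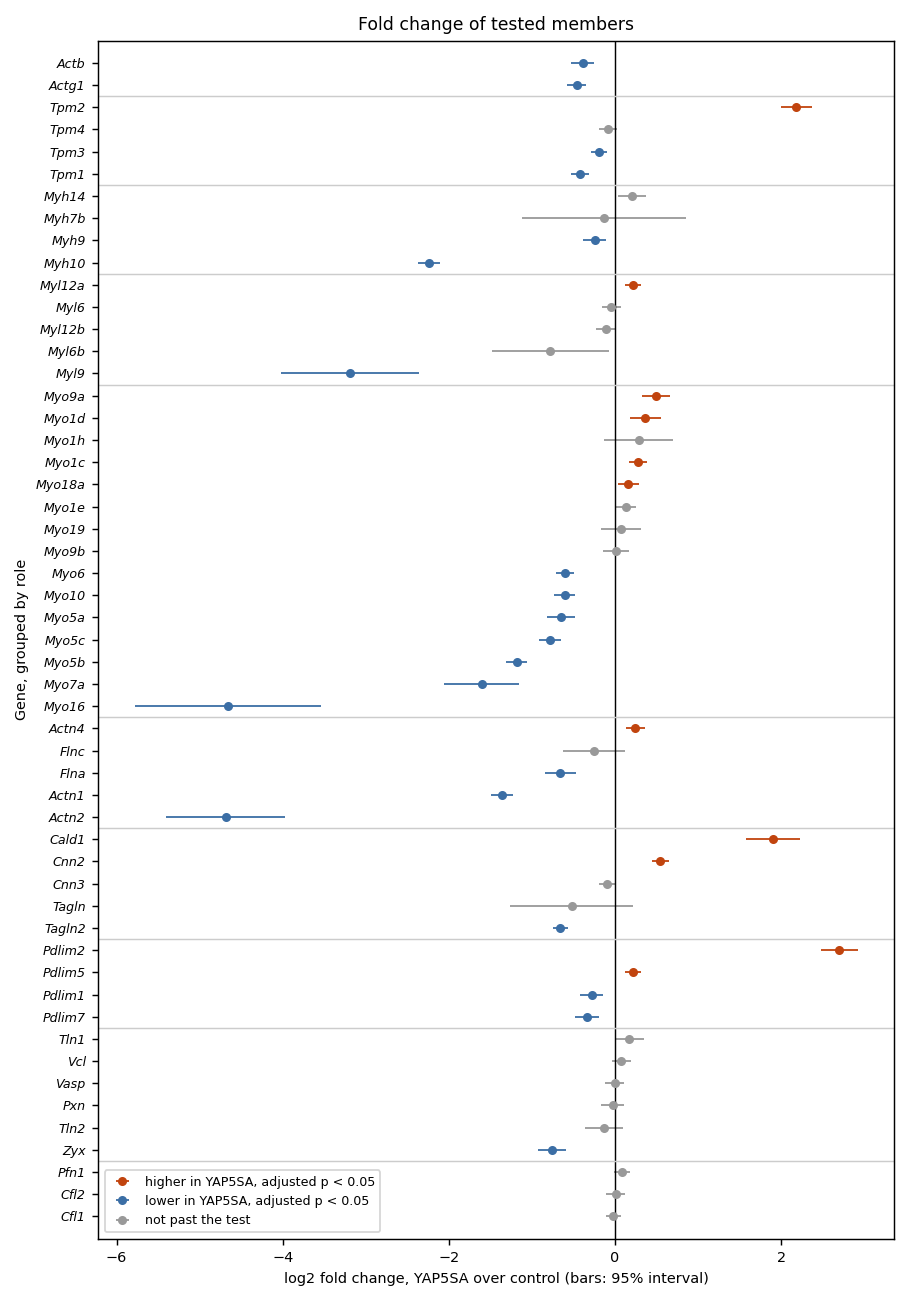
Points give the log2 fold change (YAP5SA over control, x axis) of 53 tested genes by role (rows), and bars its 95% interval. Of the 21 lower genes shown, Actn2 and Myo16 lie farthest from 0, and of the 11 higher ones Pdlim2 does, and intervals are widest for the genes with few counts.

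The alpha-actinins, which cross-link filaments into bundles, moved in opposite directions. Actn4 had 879, 842, 834 and 877 CPM in the YAP5SA libraries, against 683, 705, 696 and 814 CPM in the controls. It rose with no overlap (0.24 ± 0.06, adjusted p = 0.00167, edgeR), although control 4 came near the YAP5SA values. Actn1 had 137, 131, 127 and 121 CPM in the YAP5SA libraries, against 323, 309, 312 and 383 CPM in the controls, a change of −1.36 ± 0.07, adjusted p = 9.21e-12, with no overlap between the groups. Per kilobase, Actn1 was 12.4% ± 0.59 of the Actn1 and Actn4 total in YAP5SA and 30.2% ± 0.80 in controls (SD, n = 4 each), and Actn4 was the larger of the pair in every library. Actn2, a striated muscle form, had 0.129, 0.0552, 0.193 and 0.118 CPM in the YAP5SA libraries, against 3.35, 3.30, 2.75 and 3.90 CPM in the controls, from 8 counts over the 4 YAP5SA libraries and 220 over the 4 controls (−4.69 ± 0.37, adjusted p = 6.38e-09). Actn2 was close to 0 in YAP5SA and low in controls. It passed the filter on low counts only through the controls and so had to differ. Actn3, the fast muscle form, had 10 counts over the 4 YAP5SA libraries and 5 over the 4 controls and was not tested.

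Filamins cross-link filaments into networks and bind integrins. Flna, which lies on the X chromosome, had 349, 284, 295 and 304 CPM in the YAP5SA libraries, against 440.0, 491, 431 and 589 CPM in the controls. It fell with no overlap (−0.66 ± 0.10, adjusted p = 7.24e-05), and because Flna is X-linked, this change and the difference in sex between the groups cannot be told apart. Flnc, the muscle filamin, was low and not past the test (−0.25 ± 0.19, adjusted p = 0.299).

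Caldesmon and calponin 2, which bind the filament and restrain myosin, rose. Cald1 had 90.9, 67.1, 58.2 and 98.8 CPM in the YAP5SA libraries, against 21.0, 20.5, 19.4 and 23.6 CPM in the controls. It was 3.74-fold higher (1.90 ± 0.17, adjusted p = 4.09e-06, edgeR), with YAP5SA libraries 1 and 4 well above 2 and 3 and all of them above every control. Its first annotated promoter holds a TEAD core and its second holds neither motif, as shown above. Cnn2 had 262, 238, 238 and 255 CPM in the YAP5SA libraries, against 164, 165, 171 and 179 CPM in the controls, a rise of 0.54 ± 0.05, adjusted p = 8.09e-08, with no overlap. Cnn3, the most abundant calponin, had 381, 374, 375 and 396 CPM in the YAP5SA libraries, against 412, 418, 412 and 389 CPM in the controls. Control 4 lay among the YAP5SA values, and the change was −0.10 ± 0.05, adjusted p = 0.097, or −0.11 with adjusted p = 0.0161 without control 4. Cnn1, the smooth muscle calponin, was near 0, with 10 counts over the 4 YAP5SA libraries and 11 over the 4 controls.

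The transgelins are calponin-related filament binders. Tagln2, the form of epithelial and many other cells, had 231, 226, 225 and 213 CPM in the YAP5SA libraries, against 356, 341, 342 and 372 CPM in the controls. It fell in every YAP5SA library relative to every control (−0.66 ± 0.05, adjusted p = 3.26e-09). Tagln, the smooth muscle form and a classical SRF target, was low and not past the test (−0.52 ± 0.38, adjusted p = 0.273). Of its exon bases, 55% overlap an antisense gene, whose reads may be mixed with its own, as strand handling is not given. Tagln3, known from neurons, had 3 counts over the 4 YAP5SA libraries and 1 over the 4 controls.

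Markers of contractile cells were low in both groups. The summed level of 14 smooth muscle and mesenchyme markers was 18.3 to 23.9 CPM in YAP5SA and 16.2 to 18.3 CPM in controls. Of these, Actg2 and Lum had no counts in any library, Myocd had 0 counts over the 4 YAP5SA libraries and 2 over the 4 controls, Des had 1 count over the 4 YAP5SA libraries and 5 over the 4 controls, and Vim rose, with 13.2 ± 2.05 CPM in YAP5SA organoids and 9.13 ± 0.568 CPM in controls (0.53 ± 0.12, adjusted p = 0.0014). Smtn was the only other one tested and did not pass (0.25 ± 0.17, adjusted p = 0.246). The summed level of 10 striated muscle markers was 4.96 to 6.54 CPM in YAP5SA and 3.36 to 5.85 CPM in controls, with Myod1, Myog and Actc1 at 0. Tnni2, a fast muscle troponin, made up most of the sum in YAP5SA but not in controls. It rose, with 3.92 ± 0.712 CPM in YAP5SA organoids and 1.54 ± 0.558 CPM in controls (1.35 ± 0.26, adjusted p = 0.000297). Ttn, titin, fell (−1.53 ± 0.37, adjusted p = 0.00234). Lmod1, a smooth muscle marker that was not tested, had 45 counts over the 4 YAP5SA libraries and 7 over the 4 controls. The part of these genes in the rises of Tpm2, Cald1 and Pdlim2 was not tested. The summed level of 6 endothelial markers was 1.29 to 2.83 CPM in YAP5SA and 6.57 to 13.8 CPM in controls, and that of 6 immune markers 9.36 to 10.4 CPM in YAP5SA and 18.8 to 38.3 CPM in controls. Members of both lists moved in opposite directions. Tek carried most of the endothelial sum in controls and fell (−4.78 ± 0.38, adjusted p = 4.45e-08), while Tie1 rose (4.99 ± 0.56, adjusted p = 7.43e-07, from 109 counts over the 4 YAP5SA libraries and 3 over the 4 controls). Cd68 carried most of the immune sum and fell (−1.86 ± 0.21, adjusted p = 1.4e-05), while Csf1r rose (2.90 ± 0.45, adjusted p = 3.25e-05, from 98 counts over the 4 YAP5SA libraries and 13 over the 4 controls). Tie1 and Csf1r passed the filter on low counts only through the YAP5SA libraries, and Tek and Ttn only through the controls. Nothing is therefore read from the p-values of these genes. The part of endothelial and immune markers in the lower genes was not tested.

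**Figure D5:**
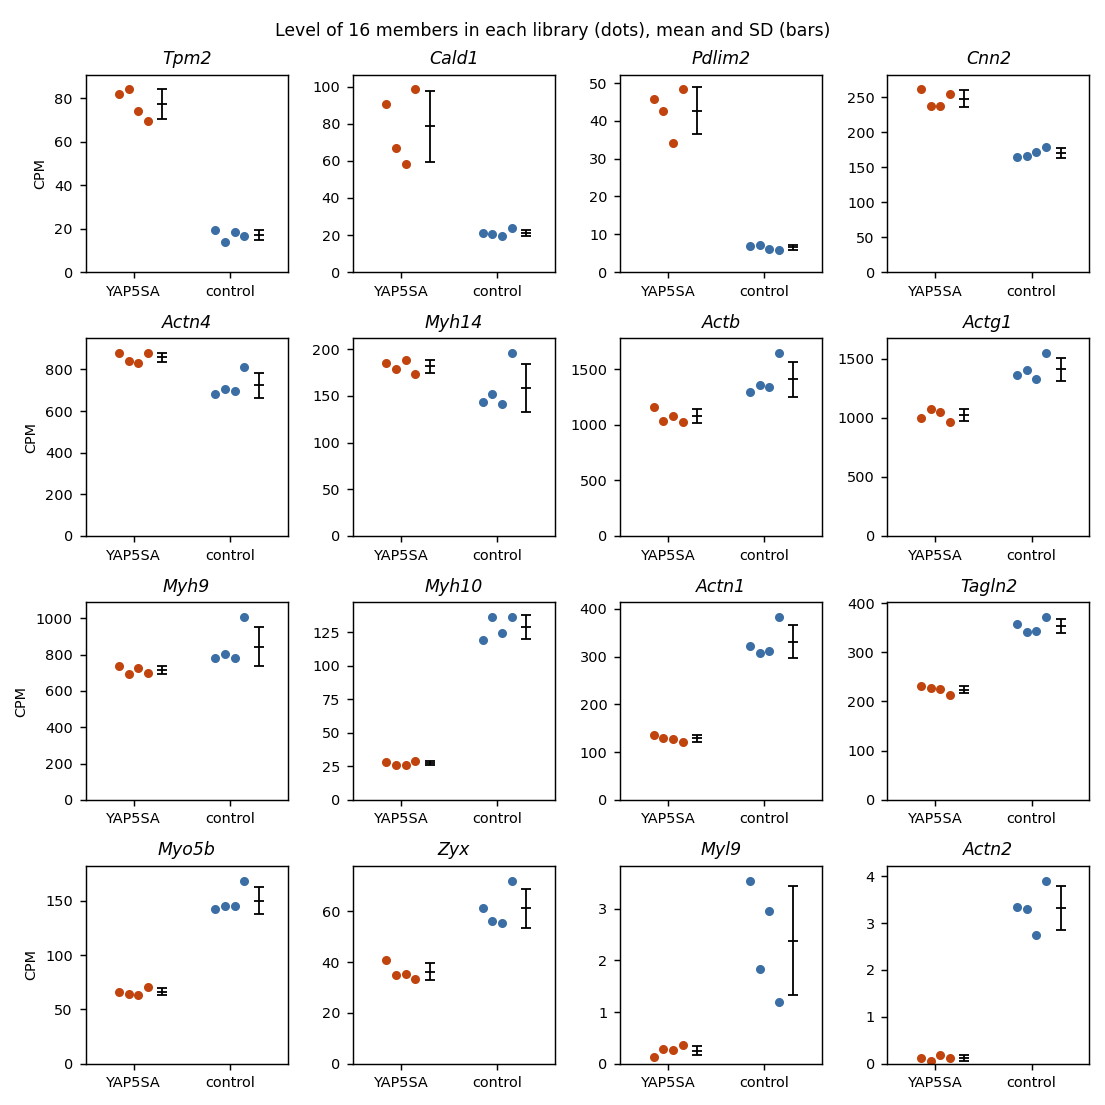
Dots give the CPM of 16 genes in each library, YAP5SA left and control right, with mean and SD beside them (n = 4 each). The first 5 genes are higher in YAP5SA, Myh14 overlaps through 1 control library, and the remaining 10 are lower with no overlap.

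All 4 tested PDZ-LIM genes, whose proteins tie alpha-actinin and filament bundles to signalling proteins, changed, 2 in each direction, where 49.1% of all tested genes changed. Pdlim2, which binds alpha-actinin and also serves as a ubiquitin ligase in the nucleus, had 45.7, 42.7, 34.2 and 48.4 CPM in the YAP5SA libraries, against 6.88, 7.26, 6.21 and 5.85 CPM in the controls. It was 6.5-fold higher (2.70 ± 0.12, adjusted p = 1.32e-12, edgeR), the largest rise among the 55 genes, and its lowest YAP5SA library was far above its highest control. Pdlim5, the most abundant of the family, had 222, 216, 212 and 222 CPM in the YAP5SA libraries, against 178, 190.3, 181 and 199.7 CPM in the controls, a rise of 0.22 ± 0.05, adjusted p = 0.00139, with no overlap. Pdlim1 averaged 34.4 ± 0.266 CPM in YAP5SA organoids and 41.7 ± 3.43 CPM in controls (−0.28 ± 0.07, adjusted p = 0.00329) and Pdlim7 25.5 ± 0.933 CPM in YAP5SA organoids and 32.2 ± 1.72 CPM in controls (−0.34 ± 0.07, adjusted p = 0.000981), and both fell. Pdlim3, a muscle form, had 0 counts over the 4 YAP5SA libraries and 7 over the 4 controls, and Pdlim4 had 17 counts over the 4 YAP5SA libraries and 2 over the 4 controls.

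Focal adhesion genes, which anchor filaments at integrins, mostly did not pass the test. Of the 6 tested, 16.7% changed, against 49.1% of all tested genes. Zyx, a tension-sensing adhesion protein, was the exception. It had 41.0, 34.9, 35.3 and 33.3 CPM in the YAP5SA libraries, against 61.4, 56.2, 55.2 and 71.9 CPM in the controls, and every YAP5SA library lay below every control (−0.76 ± 0.09, adjusted p = 1.09e-06, edgeR). Tln1, talin, which activates integrins, had 260.4, 236, 235 and 251 CPM in the YAP5SA libraries, against 198, 204, 200.003 and 270.2 CPM in the controls. The YAP5SA libraries exceeded controls 1 to 3 and lay below control 4. The change was 0.17 ± 0.09, adjusted p = 0.117, and 0.29 with adjusted p = 1.47e-05 without control 4, and Tln1 also passed without the filter on low counts. Vcl, vinculin, had 158, 139, 152 and 145 CPM in the YAP5SA libraries, against 133, 139, 139 and 153 CPM in the controls, with overlapping groups (0.07 ± 0.06, adjusted p = 0.299). For Vcl, 39.7% of exon bases overlap Ap3m1 on the opposite strand, and its promoter holds both motifs. Vasp gave −0.01 ± 0.06, adjusted p = 0.939, Pxn, paxillin, −0.03 ± 0.07, adjusted p = 0.763, and Tln2 −0.13 ± 0.12, adjusted p = 0.377.

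None of the 3 genes that turn filaments over passed the test (0%, against 49.1% of all tested genes). Cfl1, cofilin, which severs filaments, had 698, 704, 700.1 and 701 CPM in the YAP5SA libraries, against 715, 734, 727 and 669 CPM in the controls, with the YAP5SA values inside the range of the controls. Its log2 fold change was −0.02 ± 0.05, adjusted p = 0.728, with a 95% interval of −0.11 to 0.07. Pfn1, profilin, which feeds actin monomers to growing ends, had 316, 321, 308 and 299 CPM in the YAP5SA libraries, against 293, 287, 285 and 313 CPM in the controls (0.08 ± 0.05, adjusted p = 0.187), and without control 4 it was 0.11 with adjusted p = 0.0226. Cfl2, the muscle-enriched cofilin, gave 0.01 ± 0.06, adjusted p = 0.942.

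Regulators of actin outside these 84 genes gave a mixed picture. Of the 9 Arp2/3 complex genes, which nucleate branched networks, 1 was higher and 4 lower, 55.6% called against 49.1% of all tested genes, with a median log2 fold change of −0.07. At an adjusted p under 0.01 these counts were 0 and 2, and those over all tested genes 2511 and 2866. Actr3 averaged 447 ± 8.83 CPM in YAP5SA organoids and 556 ± 24.0 CPM in controls (−0.31 ± 0.05, adjusted p = 2.72e-05, edgeR), Arpc1a changed by −0.23 ± 0.05, adjusted p = 0.00088 and Arpc2 by 0.15 ± 0.05, adjusted p = 0.0118. Among 19 tested formins and other nucleators, 4 were higher and 6 lower (median −0.03), 52.6% called against 49.1% of all tested genes. Without control 4 the higher ones numbered 7, and those over all genes 3595, against 3315 with all libraries. The formins Fmnl3 and Fhod3 fell steeply, Fmnl3 with 3.99 ± 0.391 CPM in YAP5SA organoids and 26.1 ± 1.96 CPM in controls (−2.71 ± 0.11, adjusted p = 7.41e-13) and Fhod3 with 3.56 ± 0.625 CPM in YAP5SA organoids and 19.5 ± 1.87 CPM in controls (−2.45 ± 0.13, adjusted p = 4.04e-11). Enah, a filament elongator related to Vasp, averaged 94.5 ± 1.80 CPM in YAP5SA organoids and 189 ± 9.34 CPM in controls (−1.0 ± 0.05, adjusted p = 1.96e-11).

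Rhoc, a small GTPase that drives formins, averaged 4.59 ± 0.527 CPM in YAP5SA organoids and 77.6 ± 6.72 CPM in controls (−4.08 ± 0.10, adjusted p = 3.99e-16, edgeR). Rnd1, another small GTPase, averaged 3.66 ± 0.914 CPM in YAP5SA organoids and 30.1 ± 1.88 CPM in controls (−3.03 ± 0.13, adjusted p = 2.15e-12), and Limk2, which phosphorylates cofilin, 146 ± 3.08 CPM in YAP5SA organoids and 97.5 ± 7.22 CPM in controls (0.59 ± 0.06, adjusted p = 1.08e-07). Of 22 tested capping, severing and monomer-binding genes, 5 were higher (22.7%, against 23.6% of all tested genes) and 9 lower (40.9%, against 25.5%), with a median of −0.04. Without YAP5SA 1, control 1 or control 2 the higher ones numbered 3. Of all genes, 3014, 3040 and 3153 were higher in these fits, against 3315 with all libraries. Scin, among the higher ones, had 64 counts over the 4 YAP5SA libraries and 29 over the 4 controls. It passed the filter on low counts only through the YAP5SA libraries. Tmod2, among the lower ones, was near that filter in YAP5SA, with 51 counts over the 4 libraries. The filter set part of these counts, and they are descriptions only. Tmsb4x, X-linked thymosin beta 4, which sequesters monomers, averaged 572 ± 23.2 CPM in YAP5SA organoids and 1359.7 ± 139 CPM in controls (−1.25 ± 0.07, adjusted p = 2.99e-11), Tmod3, a pointed-end cap, 481 ± 9.59 CPM in YAP5SA organoids and 321 ± 6.23 CPM in controls (0.59 ± 0.05, adjusted p = 5.14e-09), and Twf1, twinfilin, 151 ± 4.27 CPM in YAP5SA organoids and 223 ± 8.13 CPM in controls (−0.56 ± 0.05, adjusted p = 2.89e-08).

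Bundling proteins and cortical linkers had 7 higher and 6 lower of 15 tested (median 0.23), 86.7% called against 49.1% of all tested genes. Rdx, radixin, which links filaments to the membrane, averaged 442 ± 7.33 CPM in YAP5SA organoids and 195 ± 4.05 CPM in controls (1.18 ± 0.05, adjusted p = 3.11e-13, edgeR). Fscn1, fascin, the bundler of filopodia, averaged 78.0 ± 8.29 CPM in YAP5SA organoids and 29.5 ± 3.51 CPM in controls (1.41 ± 0.09, adjusted p = 4.3e-10), and Eps8, a capping and bundling protein of microvilli, 92.0 ± 5.20 CPM in YAP5SA organoids and 231 ± 12.8 CPM in controls (−1.33 ± 0.06, adjusted p = 1.45e-12). Of the actin-regulated SRF cofactors, Mrtfa rose, with 29.4 ± 1.01 CPM in YAP5SA organoids and 19.9 ± 1.05 CPM in controls (0.57 ± 0.08, adjusted p = 6.83e-06), and Mrtfb fell, with 31.2 ± 2.87 CPM in YAP5SA organoids and 42.9 ± 4.42 CPM in controls (−0.46 ± 0.09, adjusted p = 0.000252). Srf itself had 26.0, 26.1, 27.4 and 27.1 CPM in the YAP5SA libraries, against 22.5, 25.6, 24.5 and 32.8 CPM in the controls, and was not past the test (0.02 ± 0.10, adjusted p = 0.864, 95% interval −0.17 to 0.22).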

How the data were processed

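RNA of 4 YAP5SA and 4 control organoid libraries was sequenced from total RNA as paired-end reads of 150 bp, per the labels' protocols. The authors deposited whole-number read counts for each gene, without normalization. Per the submitters' processing notes, reads were processed with cutadapt, HISAT2 2.0.1 and HTSeq 0.6.1 on build mm9. How strand was handled, how reads were counted and which annotation served is not given in the sources used here. Reads from genes that overlap on opposite strands may therefore be mixed.

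Rows without a gene name (0.190% to 0.221% of a library's counts) were left out and rows sharing a symbol were summed. Genes were kept by filterByExpr and tested over all 14058 with edgeR 4.0.16 (R 4.3.3), using TMM scaling, robust glmQLFit and glmQLFTest, genotype alone in the model and Benjamini-Hochberg adjustment over all of them. CPM use TMM-scaled library sizes, and SE is the size of the log2 fold change over the root of the F statistic. The fit was tested on simulated data, where it found 38% of 1.25-fold, 78% of 1.5-fold, 82% of 2-fold and 98% of 4-fold changes. Far fewer genes were changed there than were called in these data, so the shares may differ here. Alternatives were other scalings, no filter, DESeq2 1.42.0, a replicate block, each library left out and a threshold of 0.01. The 84 genes and all lists were chosen with earlier results of these data known, so their counts are descriptions. The 2 most abundant tested genes of each role, and every gene changed at least 2-fold, were given by library. The values of 2 of the 55 tested genes, and of a list of regulators, are not reported here. From each list of other regulators, up to 3 changed genes with the smallest adjusted p were named. Transcript lengths (GENCODE M21, build GRCm38) belong to the transcript with the longest coding sequence, and exon overlaps are from the same annotation. Both use a build other than that of the counts. Outliers were sought with Dixon's ratio.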

Additional observations from a re-analysis of the deposited data

Results flagged for a closer look

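Of 110 groups of 4 values checked among the tested genes, 10 held a library far from the other 3, where chance flags about 5%. In 9 of these it was control 4. Control 4 was far above the other controls for Actb (1643 CPM, the others 1297 to 1353), Myh9 (1008 CPM, the others 783 to 805), Actn4 (814 CPM, the others 683 to 705) and Tln1 (270.2 CPM, the others 198 to 204). It was also above them for Myo10 (164 CPM, the others 134 to 138), Myo5b (168 CPM, the others 143 to 145) and Myo6 (266 CPM, the others 231 to 235). It was far below them for Myl6 (413 CPM, the others 485 to 488) and Tpm4 (534 CPM, the others 605 to 609). YAP5SA 3 was above the other YAP5SA libraries for Myo1d (278 CPM, the others 255 to 258).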

How the results depend on the processing

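Across every alternative run, the 84 genes kept between 10 and 15 higher and between 22 and 26 lower calls, against 11 and 23 as reported, and no called gene changed sign. These runs tested 55 of the 84 genes, except that 77 were tested without the filter and 67 with DESeq2. Calls in those 2 runs can therefore include genes of low count that were not tested above. Calls over all genes were 6897 with RLE scaling, 6917 by library size alone, 6879 with upper-quartile scaling, 7611 without the filter, 7121 with DESeq2 and 5377 at 0.01, against 6899. With each library left out in turn, they ranged from 6371 to 7317, with 10 to 15 of the 84 genes higher and 23 to 26 lower. Among the 34 calls, Myo18a was lost with DESeq2, at 0.01 and without each library other than control 4, and 1 lower call was lost at 0.01. Myh14 was gained by library size alone, with upper-quartile scaling and without the filter, Myo1e by library size alone and without the filter, and Tln1 without the filter. Without control 4, Myh14, Myo1e, Pfn1 and Tln1 were gained as higher and Cnn3, Myl12b and Tpm4 as lower. No scaling moved the median log2 fold change of all genes by more than 0.03. Same-numbered libraries did not deviate together (correlations of −0.055, −0.079, 0.094 and 0.038, with 1 of 4 best matched by its own number). No pairing by number was seen, though so few libraries cannot exclude it. With a replicate block there were 6586 calls over all genes, 13 of the 84 genes higher, Myh14 and Tln1 gained, and 23 lower. Depth limits the 29 untested genes, which can be described only by their counts.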
